A study of Mus musculus with 6 samples.

Results

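The dystrophin-glycoprotein complex and its sarcoglycans were followed in 344SQ mouse lung adenocarcinoma cells that were made to express the microRNA cluster miR-200b-200a-429. The members are 7 genes of the 18193 measured, Sgca, Sgcb, Sgcd, Sgce, Dag1, Dmd and Utrn, and every probe set annotated to one of these symbols alone was taken, 18 of 45037. The family was chosen by an earlier result of the same comparison, the higher signal of Sgcb in the miR-200 cells. The values of the members in that comparison are therefore given as a description, with no p-value.

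The 344SQ line was grown from tumor tissue at a subcutaneous site of a p53R172H∆g/+ K-rasLA1/+ mouse, for which the sources used here give no age. Both groups carry these alleles, went through lentiviral transduction and were selected as GFP-positive pools under puromycin. The control group received the vector alone and the miR-200 group received the vector with the cluster. Each group has 3 cultures, lettered A, B and C within the group, with 1 array per culture. A group is a transduced pool and not a clone, and the labels do not say whether its cultures came from separate transductions. The SDs below therefore measure the spread between these cultures only. The standard errors of differences also draw on the spread of all other probe sets.

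Dystroglycan, encoded by Dag1, is a laminin receptor that is cleaved into an extracellular alpha subunit and a membrane-spanning beta subunit. Inside the cell the beta subunit binds dystrophin (Dmd) or its relative utrophin (Utrn), which in turn hold actin. In muscle, the sarcoglycans form a membrane complex that sits beside dystroglycan and steadies it. Beta-sarcoglycan (Sgcb) and delta-sarcoglycan (Sgcd) form the core of that complex, with alpha-sarcoglycan (Sgca) in striated muscle and epsilon-sarcoglycan (Sgce) in many other tissues. Epithelial cells are known mostly for dystroglycan, utrophin and short forms of dystrophin, which link the cell to the basement membrane.

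The mature strands of the expressed cluster are shown because they are the agent that separates the groups, with the seed (bases 2 to 8) in capitals. They come from RefSeq on the build GRCm38.p6 and lie on the minus strand at chr4:156055685-156055706 (miR-200b), chr4:156054911-156054932 (miR-200a) and chr4:156053916-156053937 (miR-429).
miR-200b-3p: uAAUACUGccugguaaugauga
miR-429-3p: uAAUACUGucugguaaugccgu
miR-200a-3p: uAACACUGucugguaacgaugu
The first 2 share one seed, and that of miR-200a differs from it at 1 base, position 4 of the microRNA. Whether any member transcript holds a site for these seeds was not analysed here.

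Values are log2 signals after quantile normalization, so a difference of 1 is a doubling. They are given as mean ± SD with n = 3. Differences are those of miR-200 from control ± limma's moderated standard error. Moderation draws the variance of each probe set toward a value shared by all probe sets. The error of a tight probe set is thus larger than its own cultures alone would give. For Dag1 1426778_at the SDs were 0.04 and 0.06 and the standard error 0.12. The table used gives no detection calls. The 3 probe sets for bacterial trp, an array control, reached 5.28 at most, which serves as a background gauge. Signals of different probe sets are not set against each other, because each has its own response. The summed signals of marker lists below are likewise for comparing a list between arrays, not lists with each other. The brightest probe sets weigh most in such a sum. The arrays of control B and of miR-200 A were unlike the rest of their groups. Over the brightest 60% of probe sets, their root mean square deviations from the group mean were 0.383 and 0.448, against 0.230 to 0.271 for the other 4 arrays. Their deviations went the same way, with a correlation of 0.711 across probe sets, although they belong to different groups. Results on the members are therefore also given without these 2 arrays for some of the probe sets. Epithelial markers of the line were bright, with 8 of 9 above the gauge in at least 1 group and the surfactant gene Sftpc below it in both. Of 10 skeletal muscle markers, 6 had both group means below the gauge, among them Myf5, Myog and the myosin genes Myh1, Myh3 and Myh4. The other 4 had both means above it. In control and miR-200 these were 6.81 and 7.20 (Acta1), 5.96 and 5.96 (Ckm), 5.62 and 5.97 (Des) and 5.42 and 5.43 (Myod1). Of 8 smooth muscle markers 6 had both means below the gauge, with Cnn1 listed at 0 on all 6 arrays. Smtn (7.51 and 7.72) and Des, which is on both lists, were above it. The summed signal of the skeletal muscle list ranged from 342.9 to 454 in the control arrays and from 373.7 to 472.4 in the miR-200 arrays. That of the smooth muscle list ranged from 297.4 to 373.3 and from 346.3 to 405.9. Of 7 fibroblast, 5 endothelial and 4 blood cell markers measured, 3, 3 and 1 had both means below the gauge, and none of 3 Schwann cell markers did. None of these lists had a marker past the threshold. The summed signal ran from 386.6 to 425.3 in controls and 408.8 to 449.1 in miR-200 cultures for fibroblasts, and from 220.1 to 228.6 and 246.7 to 263.1 for endothelium. For Schwann cells it ran from 1774 to 2048 and from 1453 to 2069, and for blood cells from 179.4 to 570.9 and from 156.2 to 596.4. For the epithelial list it ran from 54480 to 55080 and from 45340 to 46650, and 1 of its markers, the surfactant gene Sftpb, passed, from 12.58 ± 0.38 to 6.54 ± 0.03. In the blood cell list Cd68 read 8.87 for control B, 8.98 for miR-200 A and 5.73 to 6.81 for the other 4 arrays. Its high values were thus those of the 2 arrays unlike their groups. None of Cd3e, Itgam and Ptprc, the rest of that list, had its 2 highest values there. The part of all these marker signals in the results was not tested.

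Sgcb was the member that differed most. Its brightest probe set (1419668_at) read 6.62, 6.46 and 6.50 on control A, B and C and 10.53, 9.93 and 9.82 on miR-200 A, B and C. The groups were far apart, and the spread within either was small beside the gap. The means of 6.52 ± 0.08 and 10.09 ± 0.38 differ by 3.57 ± 0.22, 11.9-fold. Across the array this was rank 9 of 18193 genes ordered from the largest rise. As RNA was taken from whole cultures, a change in all cells and a change in the share of cells that hold the transcript cannot be told apart.

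The other 2 Sgcb probe sets had the same direction. The probe set 1419667_at, designed on the same cDNA, read 5.97, 5.56 and 5.34 in control A, B and C and 9.84, 9.57 and 9.38 in miR-200 A, B and C, a difference of 3.97 ± 0.22. The third, 1436678_at, was below the gauge in all 3 controls at 4.13, 3.09 and 3.67, and read 8.20, 6.66 and 6.53 in miR-200 A, B and C. Set against the gauge this is at least 3.61-fold higher. In all 3 probe sets miR-200 A was the highest of the 6 arrays, by 0.36 to 1.60 over the mean of miR-200 B and C. Without control B and miR-200 A the differences of the first 2 probe sets were 3.33 and 3.84. That of the third was 2.69, but with controls below the gauge neither this nor its fitted 3.50 with all arrays measures a size.

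Past the adjusted threshold of 0.05 in limma were 2 of the 18 member probe sets, both of Sgcb, and 1 of the 7 genes. On the whole array 0.744% of probe sets and 0.945% of genes were past it. Because Sgcb was chosen from this same fit, nothing is read from that count. The call changed with the cultures used. Without miR-200 B no member probe set was past the threshold, and without control A or without control C, 1419667_at was past it and 1419668_at was not. Without control B and miR-200 A together, 1419668_at alone was past it. In these settings the number of calls over the whole array fell as well, from 335 to 40, 32, 57 and 106. The difference itself moved little, from 3.37 to 3.71 for 1419668_at when 1 array was left out.

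**Figure D1:**
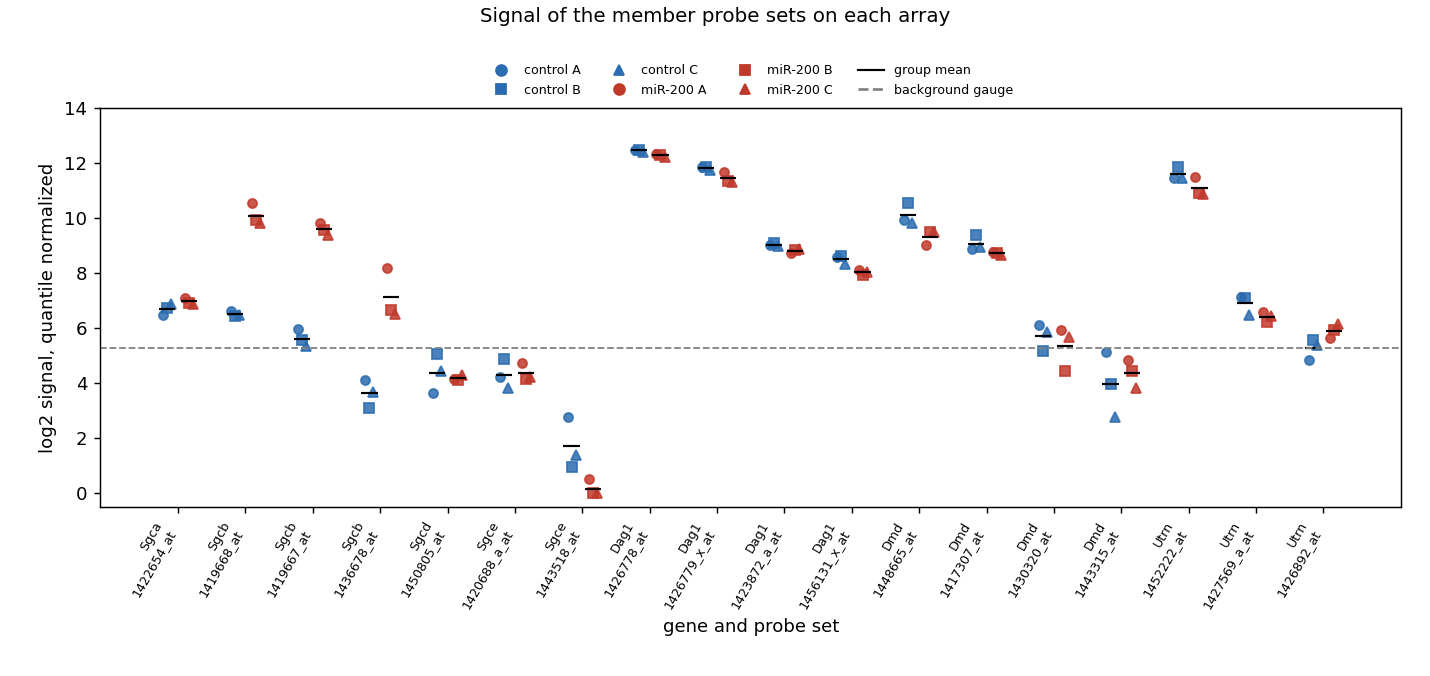
Log2 signal (vertical axis) of the 18 member probe sets (horizontal axis) on each array, with blue for control and red for miR-200 cultures, 1 symbol per culture letter, black bars for group means and a dashed line at the background gauge of 5.28. The 3 Sgcb probe sets have all red points well above all blue ones, whereas the 4 Dag1 probe sets have red points just under the blue ones.

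The other sarcoglycans did not share this pattern. Sgca, the subunit of striated muscle, read 6.47, 6.75 and 6.87 in the controls and 7.11, 6.92 and 6.89 in miR-200 A, B and C. The miR-200 values lay just above the controls, with a difference of 0.27 ± 0.16. Sgcd, the partner of Sgcb in the core, read 3.64, 5.08 and 4.43 in control A, B and C and 4.15, 4.10 and 4.31 in miR-200 A, B and C. All 6 values were below the gauge and the groups overlapped, so no change in Sgcd could be measured by its 1 probe set. Both probe sets of Sgce, the subunit found in many tissues, were below the gauge too. The first (1420688_a_at) read 4.22, 4.89 and 3.82 against 4.74, 4.17 and 4.23, with overlapping groups. The second (1443518_at) read 2.77, 0.95 and 1.41 in the controls and 0.51, 0 and 0 in miR-200 A, B and C. Such values have no usable fold, being at or near the floor of 0 of the deposited table. Of the sarcoglycans named here, Sgcb alone was thus well above the gauge in every miR-200 culture on several probe sets, and Sgca was above it on its single one.

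Dag1, the laminin receptor, was bright in every culture and slightly lower in the miR-200 cells. Its brightest probe set (1426778_at) read 12.49, 12.50 and 12.42 in the controls and 12.32, 12.31 and 12.22 in miR-200 A, B and C. The groups did not overlap, but the difference was small, -0.19 ± 0.12, which corresponds to a signal change of -12.2%. The probe set 1456131_x_at had the largest difference of the gene. It read 8.60, 8.61 and 8.33 in the controls and 8.13, 7.92 and 8.03 in the miR-200 cultures, -0.49 ± 0.14 or -28.6%. The remaining probe sets differed by -0.37 ± 0.15 (1426779_x_at) and -0.22 ± 0.12 (1423872_a_at). All 4 were lower with no overlap between groups. When any 1 array was left out the differences lay between -0.57 and -0.16. Without control B and miR-200 A together they lay between -0.49 (1456131_x_at) and -0.15 (1423872_a_at). An x in the name of a probe set marks probes that can also match other transcripts.

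The probe sets of Dmd split by signal. Its brightest (1448665_at) read 9.95, 10.54 and 9.83 in control A, B and C and 9.01, 9.50 and 9.48 in miR-200 A, B and C. The highest value was on control B and the lowest on miR-200 A, the arrays that stood apart. The difference of -0.78 ± 0.26 became -0.40 without these arrays. The next probe set (1417307_at), designed on the same transcript, read 8.90, 9.39 and 8.95 against 8.77, 8.73 and 8.67, a difference of -0.35 ± 0.17 and -0.22 without the arrays that stood apart. Here too the groups did not overlap. The dimmer 1430320_at read 6.10, 5.18 and 5.88 in the controls and 5.92, 4.43 and 5.68 in the miR-200 cultures, with overlapping groups. Its difference of -0.38 ± 0.47 was -0.93 without control B and miR-200 A and ranged up to 0.08 when 1 array was left out. The fourth, 1443315_at, was below the gauge on all 6 arrays, from 2.77 to 5.14. RefSeq lists 2 start sites for Dmd in the promoter table used, far apart within the gene, and it is not known here which forms each probe set reads.

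Utrn, the relative of dystrophin that non-muscle cells use, had probe sets that disagreed. The brightest (1452222_at) read 11.47, 11.88 and 11.46 in control A, B and C and 11.51, 10.92 and 10.89 in miR-200 A, B and C. The miR-200 A value lay among the controls, and the other 2 were lower, for a difference of -0.50 ± 0.24. Without control B and miR-200 A it was -0.56. The probe set 1427569_a_at read 7.14, 7.10 and 6.49 against 6.59, 6.23 and 6.43, a difference of -0.49 ± 0.23 with groups that overlapped. The third, 1426892_at, went the other way. It read 4.83, 5.58 and 5.39 in the controls, around the gauge, and 5.65, 5.94 and 6.14 in miR-200 A, B and C. The miR-200 mean lay 1.55-fold above the gauge, and the difference of this probe set was 0.64 ± 0.25. Without control B and miR-200 A its difference was 0.93.

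**Figure D2:**
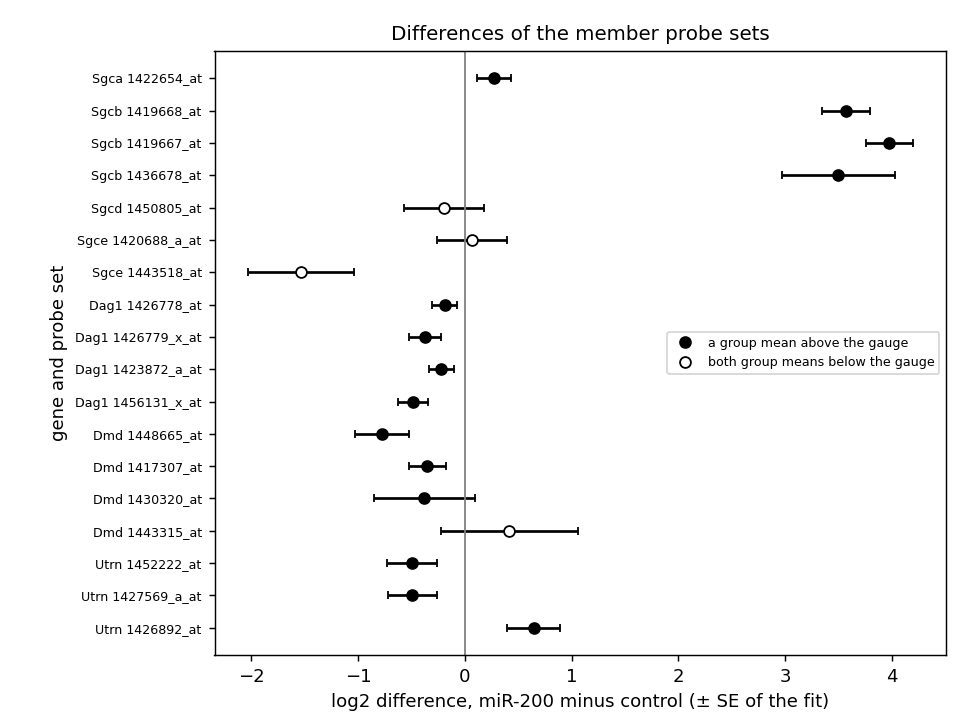
Difference in log2 signal of miR-200 over control cultures, with fit standard errors as bars (horizontal axis) for each member probe set (vertical axis). Filled points have a group mean above the background gauge and open points have both below it. The 3 Sgcb points lie between 3.50 and 3.97, the lowest being 1436678_at with controls below the gauge, and all others lie between -1.54 and 0.64.

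Over the 18 member probe sets, 5 were higher and 7 were lower with groups that did not overlap, and 6 overlapped. On the whole array 11.6% of probe sets were higher and 9.76% lower without overlap, and nothing is read from the members' counts since the family was chosen from this comparison. The higher ones are the 3 of Sgcb, that of Sgca and 1 of Utrn. The lower ones are the 4 of Dag1, 2 of Dmd and 1 of Sgce, the last near the floor. The median difference of the 7 brightest probe sets, 1 per gene, was -0.19, against 0.0014 over all genes. Apart from Sgcb they ranged from -0.78 (Dmd) to 0.27 (Sgca). The plot of differences by probe set shows Sgcb away from the rest of its complex.

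The promoter of Sgcb is shown because this is the member whose signal differed most. These are the 250 bases before its start in RefSeq on GRCm38.p6, minus strand, chr5:73647738-73647987. Capitals mark the only matches to 3 short motifs searched on both strands. They are the GC box GGGCGG, read by Sp family factors and present here as its reverse complement from base 124 before the start, and the letters TATAAA from base 241 before it.
Sgcb: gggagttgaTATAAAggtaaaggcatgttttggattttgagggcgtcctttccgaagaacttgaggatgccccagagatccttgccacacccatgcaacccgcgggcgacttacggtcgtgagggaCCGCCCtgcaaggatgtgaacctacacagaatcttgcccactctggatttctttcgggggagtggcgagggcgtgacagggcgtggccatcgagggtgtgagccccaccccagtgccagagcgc
The E-box CACCTG, the letters that Zeb proteins bind, was not found in it. Of the 7 members, 6 had a window in the RefSeq table, 8 windows in all, and Sgce was not matched. None of the 8 held CACCTG, 5 held GGGCGG and 2 held TATAAA, whereas 17.2%, 32.7% and 12.4% of all 32851 promoter windows of that length did. The 2 windows of Dag1 overlap and share their GC boxes, and by gene GGGCGG was found in 4 of 6 members and TATAAA in 2. Motif matches are a description of the letters and draw no link to the signal.

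The genes next to Sgcb in the genome did not share its rise. Lrrc66, its neighbour on one side, read 6.20, 5.91 and 6.58 in the controls and 5.51, 5.65 and 5.73 in miR-200 A, B and C. The difference of -0.60 ± 0.21 was opposite in sign to that of Sgcb and did not pass (limma, adjusted p = 0.289). Spata18, on the other side, had both group means below the gauge. It had means of 5.04 ± 0.61 and 4.36 ± 0.52, with overlapping groups. Peg10, an imprinted gene that lies head to head with Sgce, had both group means below the gauge. It read 4.14, 3.58 and 4.55 in the controls and 3.30, 6.13 and 5.51 in miR-200 A, B and C, with miR-200 A below all the others and miR-200 B and C above the gauge.

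A neighbour here is the nearest protein-coding gene on either side of a member, at any distance. Of 14 neighbours of members, 11 were measured, with 0 calls in limma. The unadjusted p was under 0.05 for 5, all lower (45.5%, against 14.8% of all genes in either direction). The median difference over the 11 was -0.60. The bright neighbour of Utrn was Stx11, a syntaxin of vesicle fusion. It read 10.28, 10.08 and 10.23 in the controls and 9.31, 9.37 and 9.28 in the miR-200 cultures, -0.88 ± 0.12 (adjusted p = 0.0586). Its other probe set differed by -0.14 with overlapping groups. Casd1, next to Sgce, differed by -1.46 ± 0.45 (adjusted p = 0.253), and Nicn1, next to Dag1, by -0.84 ± 0.21 (adjusted p = 0.175). Fthl17a, next to Dmd, differed by -0.62 ± 0.17 (adjusted p = 0.207). Col1a1, Timd4 and Epm2a, neighbours of Sgca, Sgcd and Utrn, differed by -0.12, 0.09 and 0.19, each with overlapping groups. They lie 9734, 126743 and 922522 bases from their member, against 327 bases between Lrrc66 and Sgcb.

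The 5 genes with the profile most like that of Sgcb over the 6 arrays were Rab25, Tmc4, Sertad4, Cldn3 and Prkd1. Likeness was the root mean square distance between log2 values centred on each gene's mean, over 13687 genes with a group mean above the gauge. The distances were 0.181, 0.237, 0.292, 0.312 and 0.344, against a median of 1.81. They are a description, since all 6 arrays and the same contrast enter. Rab25, Sertad4 and Prkd1 had control means below the gauge and entered through the miR-200 group alone, so their distances rest in part on control values at background. Set against the gauge they were at least 7.96-fold, 8.31-fold and 2.56-fold higher. Rab25, a small GTPase of epithelial recycling endosomes, read 4.98, 5.07 and 4.90 in the controls and 8.64, 8.27 and 7.90 in miR-200 A, B and C. Cldn3, a tight junction claudin, read 6.41, 5.92 and 6.81 against 10.66, 10.25 and 10.03. Prkd1, which encodes the kinase protein kinase D1, had the tightest miR-200 values of the 5, 6.63, 6.54 and 6.73, against 3.30, 3.42 and 3.68 in the controls. In 4 of the 5, all but Prkd1, miR-200 A was the highest array, as for Sgcb.

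**Figure D3:**
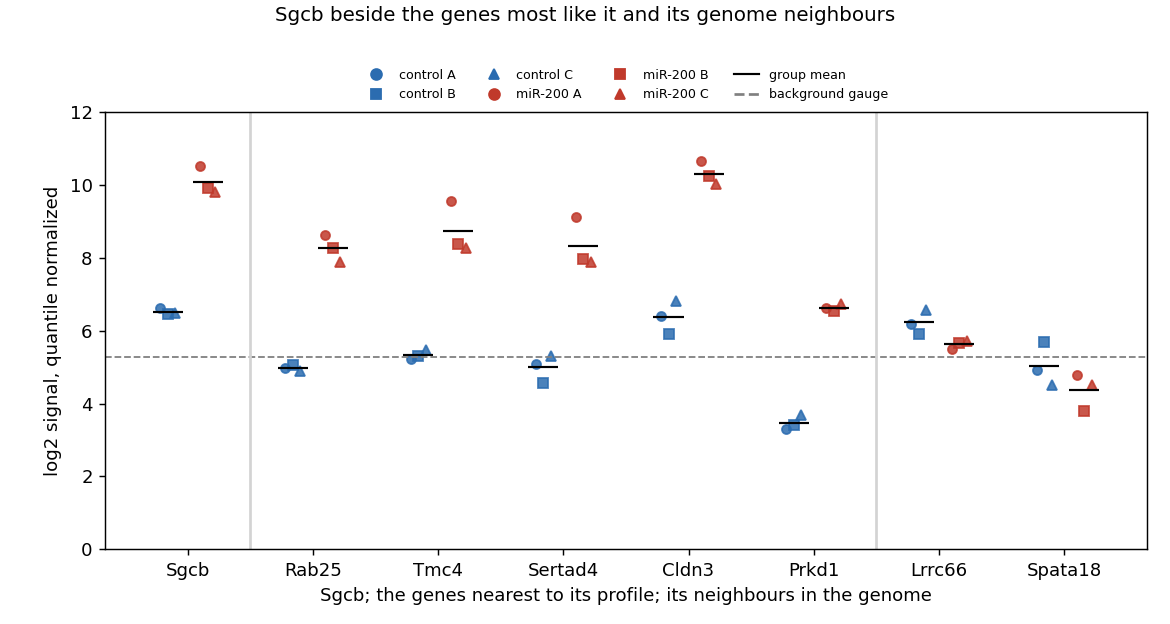
Log2 signal per culture (vertical axis) of the brightest Sgcb probe set, of the 5 genes nearest to its profile and of its genome neighbours Lrrc66 and Spata18 (horizontal axis), with blue for control, red for miR-200, black bars for group means and a dashed line at the background gauge. The first 6 genes have all red points above all blue ones, with the control means of Rab25, Sertad4 and Prkd1 under the dashed line, while Lrrc66 has red points below blue ones and Spata18 overlaps.

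None of the cytoplasmic and membrane partners of the complex passed. Of 18 listed partners 15 were measured, with 0 calls in limma. The unadjusted p was under 0.05 for 4 (26.7%, against 14.8% of all genes), of which 2 were higher and 2 lower. The median difference over the 15 was -0.16. Sspn encodes sarcospan, the small membrane protein that binds the sarcoglycans in muscle. It read 7.73, 7.84 and 7.37 in control A, B and C and 6.44, 6.02 and 5.93 in miR-200 A, B and C. The groups were clearly apart and the signal was lower where that of Sgcb was higher, -1.52 ± 0.21, 2.87-fold lower (adjusted p = 0.0568). Its dimmer probe set (1417645_at) overlapped between groups and was below the gauge on all 3 miR-200 arrays, with a mean of 4.22 against 5.39 in the controls, so the size of its difference could not be measured. Sspn passed in limma under 3 alternatives. It did so with the dimmest 40% of probe sets left out (adjusted p = 0.0153) and with array weights (adjusted p = 0.0191). The third was a variance trend with robust moderation (adjusted p = 0.0124). The difference of Sspn without control B and miR-200 A was -1.58.

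Among the syntrophins, adaptors that bind dystrophin and utrophin, Sntb2 was higher on all 4 of its probe sets without overlap, by 0.59 to 0.79. The brightest (1420372_at) read 7.38, 7.58 and 7.43 in the controls and 8.63, 8.15 and 7.90 in miR-200 A, B and C. Its difference of 0.76 ± 0.22 did not pass (adjusted p = 0.228). Dtnb, beta-dystrobrevin, a dystrophin-related scaffold of non-muscle cells, differed by 0.57 ± 0.18 (adjusted p = 0.255), and its second probe set by 0.21 with overlapping groups. Sspn, Sntb2 and Dtnb were picked for mention after their values were seen. Of the 3 partners with the brightest signal, Krt19, a keratin that can bind dystrophin and is also in the epithelial marker list, read 13.38 ± 0.18 and 12.99 ± 0.03 (adjusted p = 0.315). The cytolinker Plec read 10.78 ± 0.31 and 10.47 ± 0.88 (adjusted p = 0.817), with its lowest value of 9.49 on miR-200 A. Ank3, ankyrin-G, read 9.40 ± 0.23 and 9.35 ± 0.44 (adjusted p = 0.961).

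**Figure D4:**
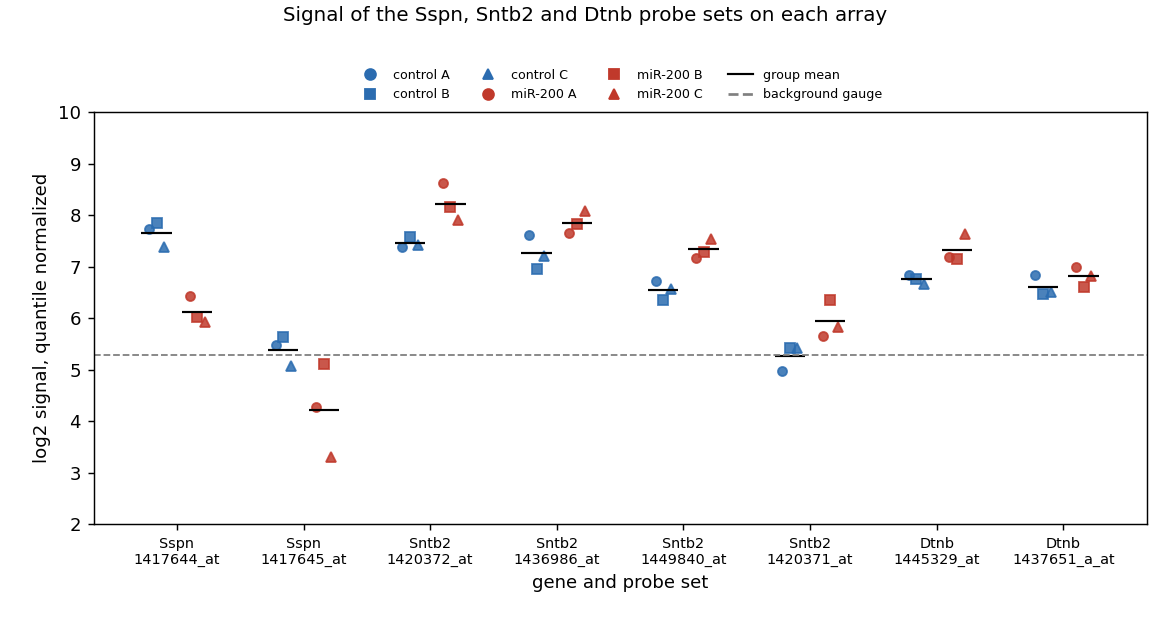
Log2 signal per culture (vertical axis) for each probe set of Sspn, Sntb2 and Dtnb (horizontal axis), with blue for control, red for miR-200, black bars for group means and a dashed line at the background gauge. The brighter Sspn probe set has every red point below every blue one, its dimmer one overlaps, and the 4 Sntb2 probe sets have every red point above every blue one.

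The enzymes that build the laminin-binding sugar of alpha-dystroglycan showed no change past the threshold. Of 19 listed, 15 were measured, 0 passed in limma, and 1 had an unadjusted p under 0.05 (6.67%, against 14.8% of all genes), Dpm2, which was higher. Their median difference was -0.02. Rxylt1, which adds xylose to that sugar, read 11.16 ± 0.20 and 11.07 ± 0.04 (adjusted p = 0.84). Dpm1 and Dpm2 encode subunits of the enzyme that makes the mannose donor. Their brightest probe sets differed by -0.47 ± 0.20 and 0.45 ± 0.18 (adjusted p = 0.383 and 0.349), opposite in sign. The other Dpm1 probe set (1419353_at) differed by 0.10 ± 0.27 with overlapping groups, so the sign for Dpm1 depends on the probe set.

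Of 19 listed genes for ligands of dystroglycan 17 were measured and 0 passed in limma. The list takes in alpha, beta and gamma chains of laminin, whether or not a chain itself binds dystroglycan. The unadjusted p was under 0.05 for 2, both lower (11.8%, near the 14.8% of all genes). The median difference over the 17 was 0.04. Lamc1, the laminin gamma-1 chain, read 10.76, 10.81 and 10.70 in the controls and 10.33, 10.05 and 10.16 in miR-200 A, B and C. The groups did not overlap, and the difference of -0.58 ± 0.13 did not pass (adjusted p = 0.155). Lamb2, a laminin beta chain and the other lower gene of the list, differed by -0.79 ± 0.29 (adjusted p = 0.312), and was picked for mention after its values were seen. The alpha chains Lama1 to Lama5, also named after their values were seen, all had overlapping groups. Lama1, Lama2 and Lama4 had both means below the gauge. Agrn, the proteoglycan agrin, read 11.46 ± 0.28 and 11.39 ± 0.30 (adjusted p = 0.923). Lamb1, the laminin beta-1 chain, read 11.11 ± 0.51 and 11.13 ± 0.50 (adjusted p = 0.995). Its wide spread follows the arrays that stood apart, 11.70 (control B) and 11.68 (miR-200 A), against 10.72 to 10.98 on the other 4.

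**Figure D5:**
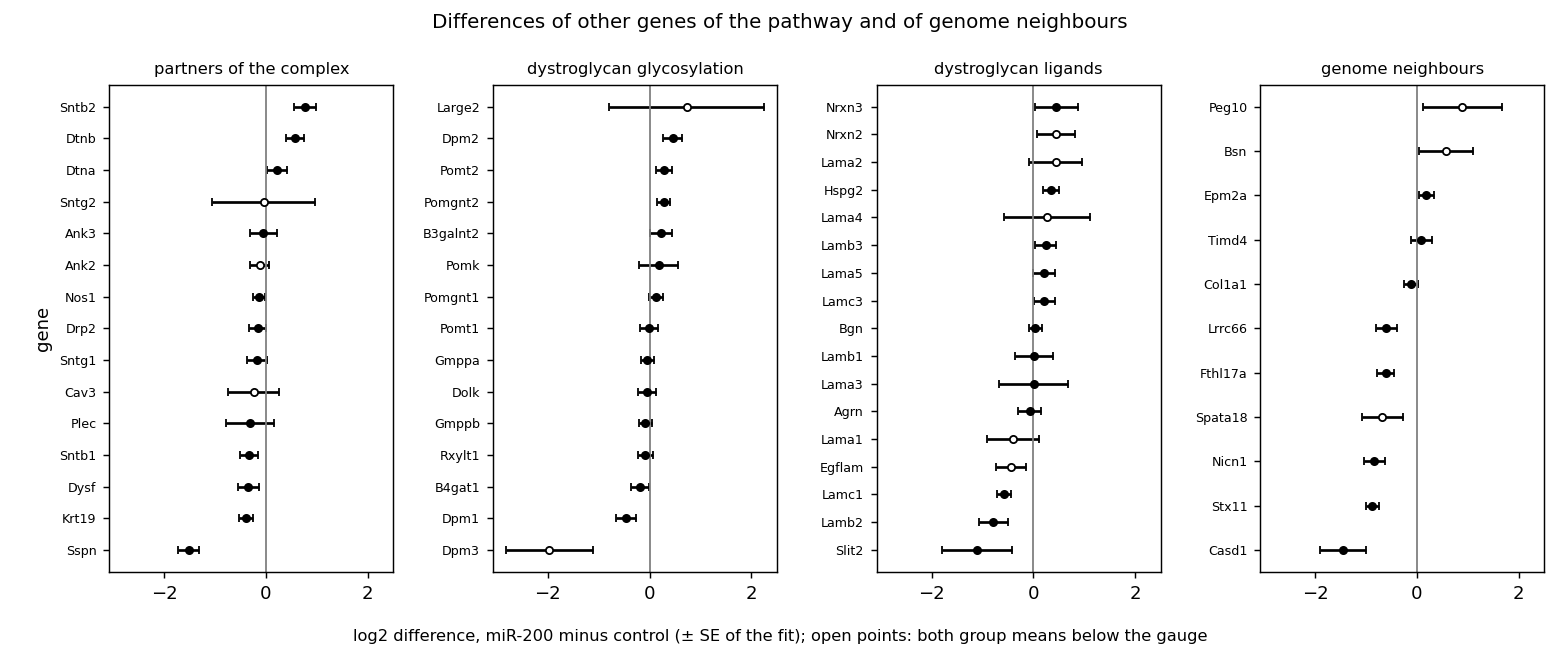
Difference in log2 signal of miR-200 over control cultures, with fit standard errors as bars (horizontal axes) for each measured gene (vertical axes) of 4 lists, namely partners of the complex, dystroglycan glycosylation, dystroglycan ligands and genome neighbours. Open points have both group means below the gauge. Among the filled points Sspn at -1.52 and Casd1 at -1.46 lie farthest to the left, and the open point of Dpm3 lies at -1.97.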

How the data were processed

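RNA of 6 cultures was hybridized as biotin-labelled cRNA to Affymetrix mouse arrays, per the labels' protocols. The deposited table gives log2 signals for 45101 probe sets. The log base follows from the values, and the summarisation, normalization and genome build are not given in the sources used here. Between 1578 and 1718 probe sets per array lie at 0. Array medians spanned 0.0924 and interquartile ranges 0.174, so arrays were quantile normalized, and 64 control probe sets were then left out. Of the rest, 34945 have 1 gene symbol, 932 several and 9160 none listed; gene numbers tied 34741 of them to RefSeq genes of GRCm38.p6. For each gene the brightest probe set was used.

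limma 3.58.1 in R 4.3.3 was fitted over all 45037 probe sets (lmFit and eBayes, two-sided, Benjamini-Hochberg, threshold 0.05). The code of the fit was also run on simulated data with independent noise. Those data lack the shared deviations of control B and miR-200 A, so nothing is read from them about the calls here. Array number, 3 per group, limits the precision. The members and gene lists were chosen with earlier results of these data known, from general knowledge of the complex. Genes named are all members, list genes past the threshold, the 3 brightest of each list, neighbours above the gauge and the 5 genes most like Sgcb. Other genes carry a remark. Alternatives were the deposited values, median centring, leaving out the dimmest 40%, array weights, and a variance trend together with robust moderation. Further ones were the mean of probe sets, the replicate letter as a block, and leaving out each array or control B with miR-200 A. Same-letter arrays had deviations that correlated at -0.58, -0.67 and 0.43, so the letters were not taken to pair the cultures. Control B and miR-200 A correlated at 0.711, and control A and C with miR-200 B and C at 0.43 to 0.589. Deviations from a group mean sum to 0 within the group. These correlations are thus tied to each other and are not separate evidence on the letters. The calls per setting are given in the closing section.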

Additional observations from a re-analysis of the deposited data

How the results depend on the processing

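The difference of the brightest Sgcb probe set, or of the mean of all 3, stayed between 3.33 and 3.71 under the alternatives run. Alone, 1419667_at reached 4.12 without 1 array and 1436678_at 2.69 without control B and miR-200 A. Other members moved by more than the spread between cultures with the mean of all probe sets, where Sgce was -0.73, Dag1 -0.32, Dmd -0.27 and Utrn -0.11. Dag1 was -0.28 when centred on array medians, and Dmd -0.40 without control B and miR-200 A. Sgcd, below the gauge, was 0.17 without these 2 arrays, opposite in sign to its -0.20. The pathway lists had 0 calls, but 2 with a variance trend and robust moderation and 2 with the dimmest 40% left out (Sspn and Stx11 in both). With array weights they had 3 (also Nicn1). Calls over all probe sets went from 335 to 923 without the dimmest 40% and 1291 with array weights. They were 951 with the variance trend and robust moderation and 106 without control B and miR-200 A. Without 1 array they ranged from 32 (without control A) to 330 (without miR-200 A). With the letter as a replicate block 0 passed, and each difference was the same as without it. The cause of these shifts was not tested; fewer probe sets or arrays act in part by construction. Sgcd, Sgce and 1 Dmd probe set were below the gauge, which limits what can be said of them.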
